A study of Mus musculus with 37 samples.

Results

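Mice that had lost or gained 1 copy of the chromosome 7 segment matching human 16p11.2 were pooled and compared with wild-type mice, to find genes that moved in the same direction with loss and with gain. The data are log2 RMA values from 37 Affymetrix gene-level arrays of total RNA. The df/+ mice carried the engineered deletion on 1 chromosome (1 copy), the dp/+ mice the duplication (3 copies), and the +/+ mice neither (2 copies). All 8 mice were male F1 hybrids (C57BL/6N:129Sv), and no age is given in the sources used here. The members are 31 region samples: 19 from 5 rearranged mice (2 df/+ and 3 dp/+) and 12 from 3 +/+ mice. Olfactory bulb, cortex, cerebellum and brain stem were profiled from each mouse except the cortex of dp/+ mouse 3. Each region thus has 3 +/+ samples against 5 rearranged ones, or 4 in the cortex. Each gene received 1 value per mouse: its log2 difference from the +/+ mean was taken in each region and averaged over the regions. A difference of -1 on this scale is a fall to 50% of the +/+ level.

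Small nucleolar RNAs are short RNAs that guide chemical modification of ribosomal RNA. Box C/D RNAs guide methylation and box H/ACA RNAs guide pseudouridylation, and a few of either kind help to cut the ribosomal RNA precursor. Small Cajal body RNAs do the same for the RNAs of the spliceosome. In mammals most of them lie in introns of host genes, many of which encode ribosomal proteins, and are released from the intron after splicing, so that the level of the small RNA and of its host's messenger can differ.

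The region labels matched their markers. The mean of the olfactory bulb neuron markers lay between 10.4 and 10.8 in the bulb and at most at 8.45 elsewhere, and the cerebellar markers lay between 12.2 and 12.5 in the cerebellum. Some samples stood apart. The brain stems of +/+ mice 1 and 2 were high in cortical neuron and choroid plexus markers, and the brain stem of dp/+ mouse 1 was high in cerebellar markers (mean 9.68, against 8.19 to 8.56 in the other 7). In the cerebellum, the choroid plexus markers were low in df/+ mouse 1 (7.87) and dp/+ mouse 2 (8.59), against 9.44 to 9.99 in the other 6. The bulb of +/+ mouse 1 was high in small nuclear RNAs (mean 9.95, against 9.21 to 9.51 in the other 7) and in histone genes (8.33, against 7.77 to 7.99). The brain stem of df/+ mouse 2 was low in pituitary and hypothalamus markers (6.36, against 7.29 to 7.64 in the other 7). The median SD between mice of 1 genotype and region was at most 0.13, and between 2 arrays of 1 sample at most 0.11, on the log2 scale.

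Across the brain, 3 small RNAs fell with both rearrangements and no gene rose past the threshold. They were Snord35b, a box C/D RNA, Snora23, a box H/ACA RNA, and Scarna17, a small Cajal body RNA. Their levels in rearranged mice were 66.7% to 70.7% of those in +/+ mice. These were 3 of 19938 genes called lower (0.0150%), by limma with Benjamini-Hochberg adjustment at 0.05, and 0 called higher (0%). At an unadjusted p below 0.05 there were 1730 lower (8.68%) and 1315 higher (6.60%).

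Snord35b stood at -0.48 and -0.67 in the df/+ mice and at -0.52, -0.44 and -0.51 in the dp/+ mice, as log2 differences from the +/+ mean, against -0.08, 0.13 and -0.05 in the +/+ mice. All 5 rearranged mice lay below all +/+ mice, and the values of the 2 genotypes interleaved. The difference was -0.52 ± 0.06 (SE, 5 against 3 mice, 95% interval -0.66 to -0.39, adjusted p = 0.0186). The contrast with +/+ was -0.57 for df/+ and -0.49 for dp/+, which share the +/+ mice. The difference of dp/+ from df/+, which uses no +/+ mouse, was 0.08 (95% interval -0.09 to 0.25).

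Scarna17 was at -0.50 and -0.62 in the df/+ mice and at -0.50, -0.34 and -0.54 in the dp/+ mice, against 0.02, 0.08 and -0.10 in the +/+ mice. The groups did not overlap. Its difference was -0.50 ± 0.06 (SE, adjusted p = 0.0186). Snora23 was at -0.39 and -0.65 in the df/+ mice and at -0.62, -0.48 and -0.80 in the dp/+ mice, against -0.06, 0.01 and 0.04 in the +/+ mice. It too separated the groups, with a wider spread among rearranged mice (SD 0.16) than among +/+ mice (SD 0.05). Its difference was -0.59 ± 0.08 (SE, adjusted p = 0.0186).

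The calls depended on single mice and regions. All 3 differences stayed below 0 in every alternative computed, but these genes were called on the same values. With the groups apart in each of them, leaving out a mouse could hardly reverse the sign. Leaving out +/+ mouse 1, +/+ mouse 2 or dp/+ mouse 1 brought the count of calls to 0. It was 2 after df/+ mouse 1 was left out, 6 after df/+ mouse 2 and 11 after +/+ mouse 3. It was also 0 without the cerebellum, without the brain stem, or after quantile normalisation within regions or cyclic loess between arrays. Without the bulb the 1 gene called was Snord57, a small nucleolar RNA that was higher. With all region samples entered and a random mouse effect, Snora23 kept its call while Snord35b and Scarna17 lost theirs (adjusted p = 0.0188, 0.116 and 0.0634). With each mouse left out in turn, Snord35b ranged from -0.56 to -0.47, Scarna17 from -0.55 to -0.47 and Snora23 from -0.64 to -0.53.

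**Figure D1:**
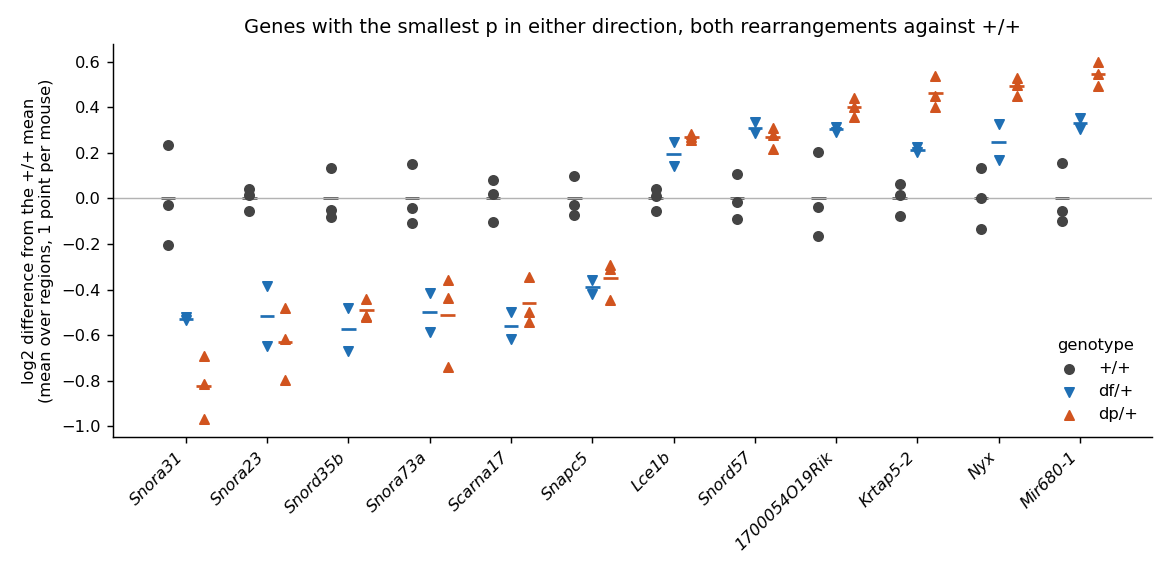
Log2 difference from the +/+ mean, averaged over regions, for the 6 genes with the smallest p in each direction; each point is 1 mouse, short bars are genotype means. The 5 rearranged mice lie on one side of the 3 +/+ mice for all 12 genes, of which Snord35b, Scarna17 and Snora23 passed the threshold.

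The next 3 genes by p among those with lower values did not pass. Snora31, a box H/ACA RNA within Tpt1, had the largest difference of the 6, -0.71 ± 0.11 (SE, adjusted p = 0.0569). It was at -0.53 and -0.52 in the df/+ mice and at -0.97, -0.81 and -0.69 in the dp/+ mice, against -0.21, 0.23 and -0.03 in the +/+ mice. The groups did not overlap, and the dp/+ mice were the lowest. Snapc5, a subunit of the complex that starts transcription of small nuclear RNA genes, differed by -0.37 ± 0.06 (SE, adjusted p = 0.0671). Snora73a, a box H/ACA RNA in Snhg3, differed by -0.51 ± 0.08 (SE, adjusted p = 0.0894).

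In the other direction the smallest p belonged to the microRNA gene Mir680-1, at 0.46 ± 0.08 (SE, adjusted p = 0.0894). It was at 0.30 and 0.36 in the df/+ mice and at 0.49, 0.60 and 0.55 in the dp/+ mice, against -0.10, -0.06 and 0.15 in the +/+ mice. Without the bulb its difference was 0.20. Snord57, a box C/D RNA within Nop56, was the one member of its family with higher values in all rearranged mice, at 0.29 and 0.34 in df/+ and 0.28, 0.31 and 0.22 in dp/+, against 0.11, -0.09 and -0.02 in +/+ mice (difference 0.29 ± 0.05, adjusted p = 0.150). In the bulb it differed by -0.20, and without the bulb by 0.46 (adjusted p = 0.0179). The other 4 genes were 1700054O19Rik, which has no assigned function, the keratin-associated gene Krtap5-2, the retinal proteoglycan gene Nyx and the epidermal gene Lce1b. Their differences were 0.36, 0.36, 0.40 and 0.24, with adjusted p between 0.150 and 0.161.

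Genes that separated the groups completely were more often lower than higher. In 895 genes (4.49%) all 5 rearranged mice lay below all 3 +/+ mice, and in 641 (3.21%) all lay above. Fewer mice separate more easily: leaving out +/+ mouse 1 gave 2239 and 2287, +/+ mouse 3 gave 2608 and 1050, and df/+ mouse 1 gave 1448 and 1779. Without the cerebellum they were 393 and 409, and among brighter genes 688 and 70. Genes at low signal leaned upward: the median difference was 0.06 in the third of 10 classes of mean level and -0.07 in the seventh, against -0.01 over all genes. In the third class this was made of 0.01 in df/+ and 0.10 in dp/+ mice, so the upward lean was mostly in dp/+. The seventh class was at -0.05 in df/+ and -0.08 in dp/+ mice.

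Mphosph6, a cofactor of the RNA exosome, was among the genes that separated the groups, at -0.38 and -0.48 in the df/+ mice and at -0.15, -0.17 and -0.26 in the dp/+ mice, against 0.01, 0.08 and -0.09 in the +/+ mice. It did not pass (difference -0.29 ± 0.07, adjusted p = 0.213). The vault RNA gene Vaultrc5 was at -1.13 and -1.42 in the df/+ mice and at -0.15, 0.07 and -0.49 in the dp/+ mice, against -0.18, 0.39 and -0.21 in the +/+ mice. The dp/+ and +/+ mice overlapped, and dp/+ exceeded df/+ by 1.09 (95% interval 0.69 to 1.48, adjusted p = 0.0448). Its pooled difference was -0.63 ± 0.27 (adjusted p = 0.310).

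Genes of the rearranged segment cancelled in the pooled comparison. Of its 30 measured genes, 0 were called, and their median difference was -0.02, made of -0.60 in df/+ and 0.27 in dp/+. Gdpd3, a lysophospholipase D gene, was at -2.88 and -2.79 in the df/+ mice and at 0.52, 0.58 and 0.80 in the dp/+ mice, which gave a pooled difference of -0.75 ± 0.75 (SE). In 1 of the 30 (3.33%, beside 3.21% of all genes) the rearranged mice separated upward, the leukocyte sialoglycoprotein gene Spn. It was at 0.07 and 0.14 in the df/+ mice and at 0.26, 0.22 and 0.26 in the dp/+ mice, against 0.02, -0.06 and 0.04 in the +/+ mice, so that all rearranged mice lay above all +/+ mice (difference 0.19 ± 0.06, adjusted p = 0.234). Across all genes, dp/+ minus df/+ gave 34 calls, all higher in dp/+ (0.171%).

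The small nucleolar and Cajal body RNAs leaned lower as a family. Of 54 measured members, 3 were called lower and 0 higher, and 29 were lower and 1 higher at an unadjusted p below 0.05, beside 8.68% and 6.60% of all genes. In 16 members all rearranged mice lay below all +/+ mice, beside 4.49% of all genes. The family's median difference was -0.21, with -0.21 for df/+ and -0.23 for dp/+, against -0.01 over all genes. The median over the family was -0.04, 0.09 and -0.06 in the +/+ mice, -0.20 and -0.30 in the df/+ mice and -0.33, -0.16 and -0.21 in the dp/+ mice. In this average over regions the groups did not overlap. The family was chosen because earlier results of these data had named some members as low, so its direction is not independent evidence.

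The lean was seen in both main classes. The 31 box C/D RNAs had a median of -0.21, with 13 lower and 1 higher at an unadjusted p below 0.05. The 20 box H/ACA RNAs had a median of -0.27, with 15 lower and 0 higher. Of all genes, 8.68% were lower and 6.60% higher at that level. Among the 3 Cajal body RNAs, Scarna17 was at -0.50, while Scarna13 and Scarna8 were at -0.04 and -0.03. Members with larger differences than the called ones included Snord104 at -0.67, Snord118, which acts in cutting the ribosomal RNA precursor, at -0.63, Snord14e at -0.63 and Snord73b at -0.62, none of which passed. These 4 were picked after their values were seen.

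The genes that span the small RNAs did not show the same size of difference. In the reference gene order, 27 of the RNAs lay within the span of exactly 1 gene that was itself measured, which gave 23 distinct genes. The median difference of these genes was -0.06, against -0.19 for the RNAs, and 22 of the 27 RNAs were lower than the gene that spans them. None of the 23 was called, and 1 was lower at an unadjusted p below 0.05, beside 8.68% of all genes. Ipo7, an import receptor gene that spans Snora23, differed by -0.03, and Tpt1, which spans Snora31, by 0.01. Rps12 and Hspa8 differed by 0.04 and 0.06, while the Snora33 and Snord14e they hold differed by -0.40 and -0.63. Nop56 differed by -0.11, and its Snord57 by 0.29. The reference table was read without strand, and reads of an RNA and of the intron around it cannot be told apart on these arrays.

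**Figure D2:**
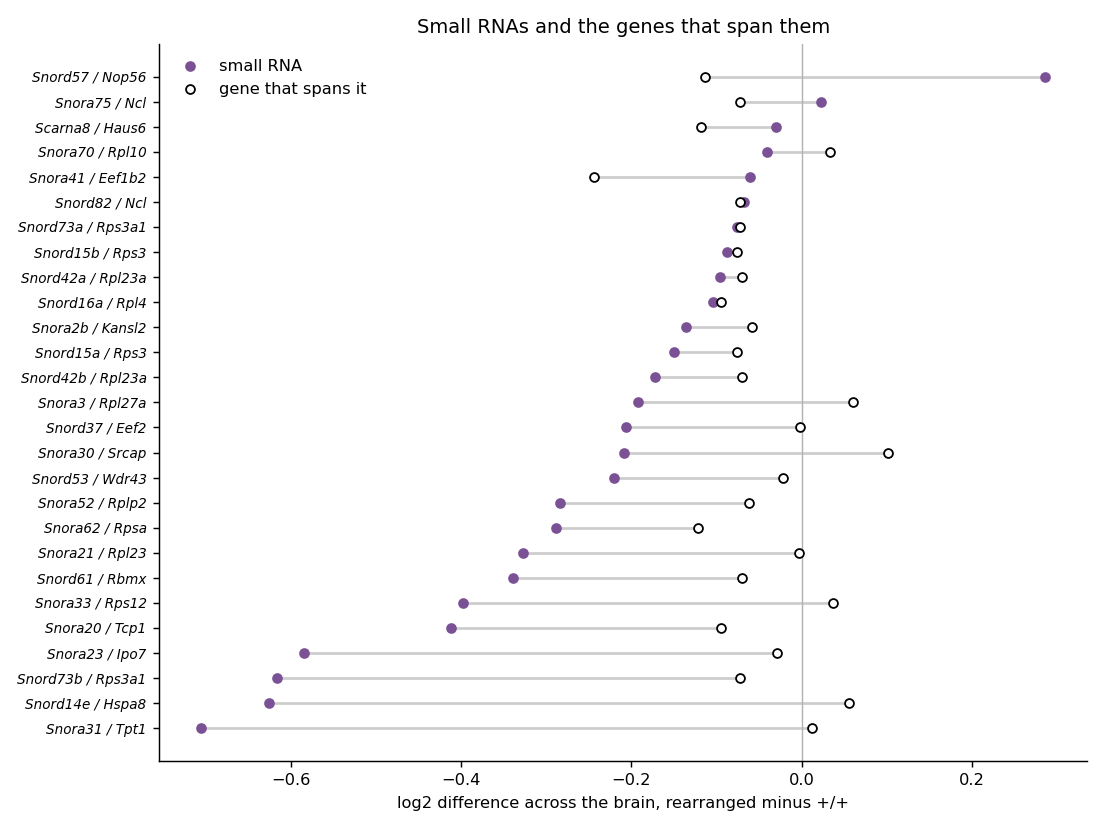
Log2 difference across the brain, rearranged minus +/+, of 27 small nucleolar and Cajal body RNAs (filled) and of the measured gene that spans each (open), ordered by the RNA's difference. Most filled points lie left of their open partner, while the open points lie near 0.

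The olfactory bulb carried the largest share of this. There 19 of 54 members were called lower and 1 higher, beside 1.17% and 0.522% of all genes in that region, and the family median was -0.56. In the cerebellum 2 of the 54 were called lower and 1 higher (median -0.19), beside 1.94% and 0.436% of all genes there. In the cortex and brain stem none was called (medians -0.07 and -0.22), beside 0% and 0.0401% of all genes. In the cortex, cerebellum and brain stem the family's mean level overlapped between the groups. The cortices ran from 8.04 to 8.32 in +/+ and from 7.92 to 8.26 in rearranged mice. The cerebella ran from 8.24 to 8.73 and from 8.25 to 8.53, and the brain stems from 8.25 to 8.58 and from 7.96 to 8.30. The family's mean level in the bulb was 9.01, 8.67 and 8.40 in the +/+ mice, against 8.18 and 8.16 in the df/+ mice and 8.22, 8.16 and 8.23 in the dp/+ mice. The rearranged mice were close together, and the +/+ mice ranged widely above them, with mouse 1 the highest. Other groups leaned lower in the bulb with them: the median was -0.31 for 12 small nuclear RNAs, -0.19 for 61 ribosomal protein genes and -0.16 for 93 genes of oxidative phosphorylation, with 10, 52 and 82 of them below 0. Their part in the family's difference was not tested. With +/+ mouse 1 left out, 0 members were called lower in the bulb; with +/+ mouse 2 it was 4, with dp/+ mouse 2 it was 6, with dp/+ mouse 3 it was 11 and with df/+ mouse 2 it was 12. Leaving the bulb out of the whole-brain values brought the 16 members that separated the groups down to 6, and the family median to -0.14.

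**Figure D3:**
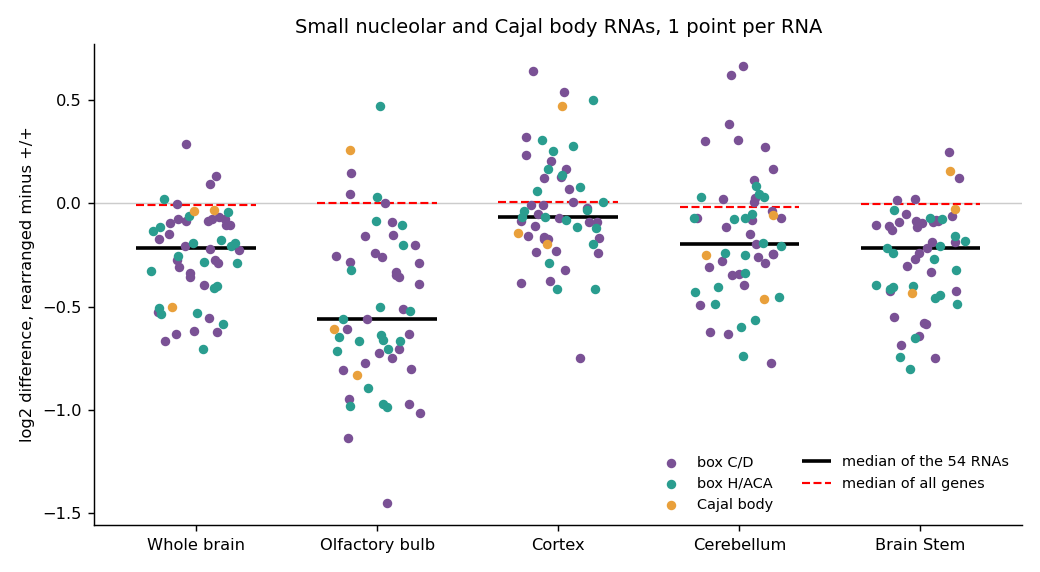
Log2 difference, rearranged minus +/+, of each of the 54 small nucleolar and Cajal body RNAs across the brain and within each region, coloured by class, with the family median (black) and the median of all genes (dashed red). The family median is lowest in the bulb (-0.56) and nearest 0 in the cortex (-0.07).

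Single members in the bulb fell to near 50% of the +/+ level. Snora73a was at 10.60, 10.30 and 10.22 in the +/+ mice, against 9.54 and 9.23 in df/+ and 9.17, 9.50 and 9.52 in dp/+ mice, with no overlap (difference -0.99 ± 0.17, adjusted p = 0.00789). Snora73b, in the same host Snhg3, differed by -0.97 and Snora74a by -0.98. Snord118 had the lowest value of the family, -1.45 (adjusted p = 0.0150). Scarna17 differed by -0.83 and Snora31 by -0.90, and both passed in the bulb. Snord35b, at -0.80, did not (adjusted p = 0.0650). Snora75, within Ncl, was the one member called higher, at 0.47 (adjusted p = 0.0318), while Snord82 in the same gene fell by 0.81.

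Genes for proteins that work with these RNAs were also low in expression on the whole. All 18 measured genes for core proteins of small nucleolar ribonucleoproteins had a difference below 0, with a median of -0.11. None was called, 7 were lower at an unadjusted p below 0.05 (8.68% of all genes were), and 5 separated the groups downward (4.49% of all genes did). Leaving out +/+ mouse 2 took the 7 to 3. The smallest p belonged to Ruvbl1, an assembly helicase, at -0.20, to Dkc1, the pseudouridine synthase, at -0.21, to Gar1, its partner, at -0.26, and to Coil, which organises Cajal bodies, at -0.17. Dkc1 was called in the cerebellum, at 9.57, 9.67 and 9.49 in the +/+ mice against 9.37 and 9.15 in df/+ and 8.96, 9.32 and 9.17 in dp/+ mice (difference -0.38, adjusted p = 0.0433). Of 45 genes of ribosomal RNA processing and the exosome, 43 had a difference below 0 (median -0.09), 15 were lower at an unadjusted p below 0.05, beside 8.68% of all genes, and none was called. Without +/+ mouse 2 the 15 became 5, and without the cerebellum 7. Utp14a, Utp4 and Exosc1 differed by -0.22, -0.21 and -0.23. In the cerebellum 5 of them were called lower, beside 1.94% of all genes: Utp4, Utp6, Utp14a, Bms1 and Ftsj3, by -0.34 to -0.29. The genes of brighter signal as a class had a median of -0.05 across the brain and of -0.10 in the cerebellum.

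Genes that respond to glucocorticoids had the next lowest median of the functional groups, -0.19 over 20 measured genes. None was called across the brain, 10 were lower and 1 higher at an unadjusted p below 0.05, beside 8.68% and 6.60% of all genes, and 3 separated the groups downward, beside 4.49%. Nfkbia, the inhibitor of NF-kappa-B, differed by -0.37, Tsc22d3, a direct glucocorticoid target, by -0.35, the kinase gene Pdk4 by -0.53 and the lipocalin gene Lcn2 by -0.58. Tsc22d3 (-0.53) and Lcn2 (-1.06) were called in the bulb, and Fkbp5 (-0.62) and Zbtb16 (-0.76) in the cerebellum. Of all genes, 1.17% were called lower in the bulb and 1.94% in the cerebellum. Immediate early genes (27 measured, median -0.11) had no call. Of the 27, 6 were lower at an unadjusted p below 0.05, beside 8.68% of all genes. Downward separation of the groups was seen in 3 (11.1%, beside 4.49%), among them Gadd45b at -0.23 and Junb at -0.21. Of 18 clock genes (median -0.11), none was called across the brain. In the bulb 2 of the 18 were called lower and in the cerebellum 1, beside 1.17% and 1.94% of all genes. The clock repressor Bhlhe41 was called in the bulb (-0.37) and the cerebellum (-0.40). The 20 heat shock and cold-inducible genes had a median of -0.11 and no call across the brain. Of these 20, 3 were called lower in the bulb and 4 in the cerebellum, beside 1.17% and 1.94% of all genes. Among them the co-chaperone Dnajb1 was called in both regions, at -0.48 in each. The labels give no hour of collection.

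Receptor genes of smell, taste and pheromones leaned the other way. Of 1207 measured, none was called across the brain, 384 were higher and 0 lower at an unadjusted p below 0.05, beside 6.60% and 8.68% of all genes, and 181 separated the groups upward, beside 3.21%. Olfr744 (0.23) and Olfr714 (0.26) were among the last. The 384 became 142 or 210 with +/+ mouse 2 or 3 left out, 252, 243 or 233 with dp/+ mouse 1, 2 or 3 left out, 166 without the bulb and 154 without the cerebellum. They became 203, with 12 lower, after quantile normalisation within regions, and 226, with 9 lower, after cyclic loess. Their median was 0.10, made of 0.02 in df/+ and 0.15 in dp/+ mice. The median by mouse was 0.15, 0.14 and 0.16 in dp/+ mice, 0.01 and 0.03 in df/+ mice and 0.03, -0.02 and -0.01 in +/+ mice, so the df/+ mice overlapped the +/+ mice. Of these genes, 1196 (99.1%) lay in the lowest 4 of 10 classes of signal, and all genes of those classes had medians of 0.04 to 0.06. Whether the shift of dim signal plays a part was not tested.

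Within the olfactory bulb, 234 genes were called lower and 104 higher (1.70% in all). Mobp, a myelin protein gene, was at 10.73, 10.75 and 10.27 in the +/+ mice, against 10.14 and 10.13 in df/+ and 10.04, 9.84 and 9.59 in dp/+ mice (difference -0.63 ± 0.10, adjusted p = 0.00572). The groups did not overlap, and dp/+ mouse 3 was the lowest. The GTPase gene Rab9b (-0.60), the respiratory complex gene Ndufa7 (-0.62) and the small chaperone gene Cryab (-0.48) also fell. Among genes that rose were the bitter taste receptor gene Tas2r143 (0.60), the amylase gene Amy1 (0.88), the histone demethylase gene Kdm5a (0.45) and the ubiquitin ligase gene Wsb1 (0.50). After centring arrays on their medians 546 were lower and 64 higher. Leaving out +/+ mouse 1, 2 or 3 gave 0, 87 or 802 calls, leaving out df/+ mouse 2 gave 157, and leaving out dp/+ mouse 1, 2 or 3 gave 202, 54 or 206. With the bulb fitted alone it was 9.

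Genes of olfactory sensory neurons, whose axons enter the bulb from the nose, fell there in part. Of 21 measured, 5 were called lower in the bulb and 0 higher, beside 1.17% and 0.522% of all genes. Gng13, the G protein subunit of olfactory transduction, was at 10.80, 10.09 and 9.92 in the +/+ mice, against 9.33 and 9.47 in df/+ and 9.47, 9.57 and 9.49 in dp/+ mice (difference -0.80 ± 0.15, adjusted p = 0.0146). Stoml3, a membrane protein of olfactory cilia, was at 12.02, 11.54 and 11.65 against 10.82 and 11.05 in df/+ and 11.01, 11.24 and 10.91 in dp/+ mice (difference -0.73 ± 0.18, adjusted p = 0.0334). Both separated the groups. Cnga2, the cation channel subunit of transduction, was at 6.67, 6.73 and 6.27 against 5.68 and 6.30 in df/+ and 6.15, 6.18 and 6.17 in dp/+ mice, with df/+ mouse 2 just above +/+ mouse 3 (difference -0.46 ± 0.11, adjusted p = 0.0321). S100a5 differed by -0.76 and Cbr2 by -0.56.

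Omp, which marks mature sensory neurons, was not called. It was at 11.24 and 10.75 in +/+ mice 1 and 3 with mouse 2 between them, 10.31 and 11.10 in df/+ and 10.38, 10.77 and 10.84 in dp/+ mice, so the groups overlapped (difference -0.32 ± 0.15, adjusted p = 0.256). Markers of nasal mucosa were called lower in 4 of 16 cases, beside 1.17% of all genes. Cyp2g1, a cytochrome of the olfactory mucosa, was at 7.93, 9.05 and 7.20 in the +/+ mice, 6.12 and 5.66 in df/+ and 7.64, 7.58 and 7.36 in dp/+ mice, where the dp/+ and +/+ mice overlapped (difference -1.19 ± 0.31, adjusted p = 0.0420). The mean of the 16 mucosa markers in the bulb ran from 6.38 to 6.69 in +/+ and from 5.93 to 6.44 in rearranged mice. Its part in the differences of sensory neuron genes was not tested, and in such bulk tissue fewer cells of a type and less RNA per cell cannot be told apart. Across the brain none of Gng13, Stoml3, Cnga2 and Omp passed, at -0.14, -0.14, -0.08 and 0.04.

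**Figure D4:**
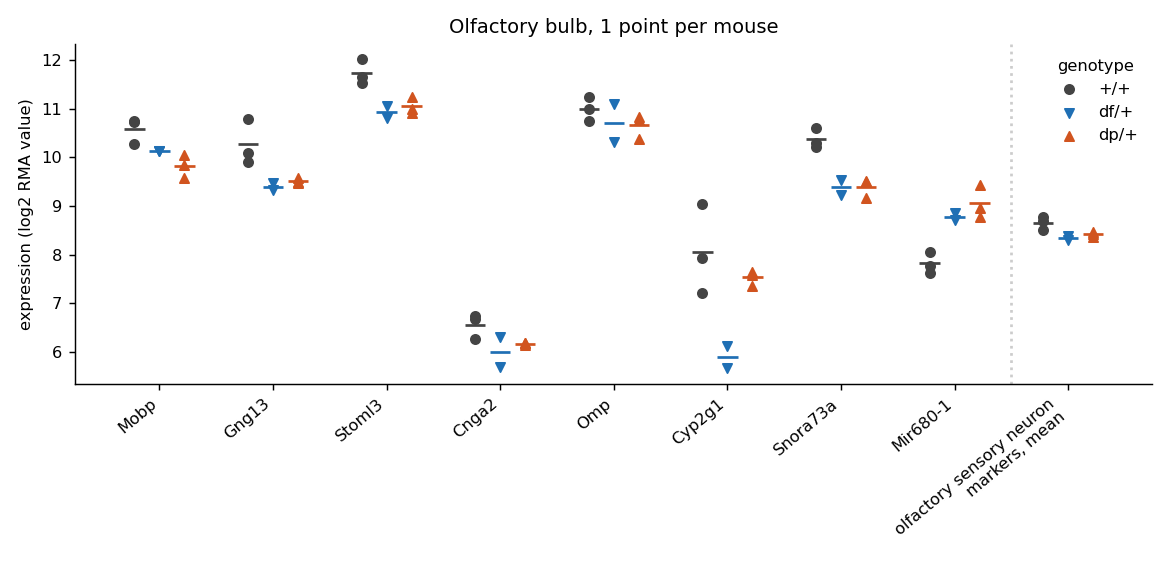
Expression in the olfactory bulb (log2 RMA value), 1 point per mouse, with short bars at genotype means; the last column is the mean of the 21 olfactory sensory neuron markers. The rearranged mice lie below the +/+ mice for Mobp, Gng13, Stoml3 and Snora73a and above them for Mir680-1, and overlap them for Omp.

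Of 302 measured microRNA genes, 5 were called higher and 2 lower in the bulb, beside 0.522% and 1.17% of all genes. Mir680-1 had the smallest p of all genes there. It was at 7.78, 7.62 and 8.06 in the +/+ mice, against 8.70 and 8.85 in df/+ and 8.78, 8.97 and 9.43 in dp/+ mice (difference 1.13 ± 0.17, adjusted p = 0.00281). Mir680-2 differed by 0.92 (adjusted p = 0.0367) and Mir680-3 by 0.46 (adjusted p = 0.0769). All 3 separated the groups in the bulb. They are distinct loci of 1 mature microRNA, so their probe sets can share target sequence. In RefSeq (GRCm38.p6) the hairpins lie at chr6:129691535-129691643 (plus strand), chrX:144297790-144297899 (plus strand) and chr12:35194811-35194897 (minus strand). The mature sequence is shown with its seed, bases 2 to 8, in capitals, and the hairpins with the mature sequence in capitals, since the copies share it and differ around it.
mmu-miR-680: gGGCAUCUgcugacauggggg
Mir680-1: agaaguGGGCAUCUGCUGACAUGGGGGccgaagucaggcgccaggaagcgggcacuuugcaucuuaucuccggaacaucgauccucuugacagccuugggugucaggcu
Mir680-2: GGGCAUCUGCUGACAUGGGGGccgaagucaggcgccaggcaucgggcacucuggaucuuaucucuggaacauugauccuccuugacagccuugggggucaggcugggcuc
Mir680-3: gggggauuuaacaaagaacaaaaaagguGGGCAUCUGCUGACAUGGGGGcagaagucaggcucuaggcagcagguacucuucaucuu

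Other microRNA genes were called in the bulb or the cerebellum. In the bulb Mir9-3, a locus of a microRNA of neural progenitors, rose by 0.46 (adjusted p = 0.0179), and Mir484 fell by 0.33 (adjusted p = 0.0420). In the cerebellum 3 of the 302 were called lower and 3 higher, beside 1.94% and 0.436% of all genes there. Among them Mir181a-1 fell by 0.55 (adjusted p = 0.0201), Mir30b by 0.61 (adjusted p = 0.0201), and Mir346 rose by 0.44 (adjusted p = 0.0439). Mir181a-1 was at 5.83, 6.29 and 5.77 in the +/+ cerebella, against 5.48 and 5.35 in df/+ and 5.55, 5.42 and 5.27 in dp/+ mice, with no overlap. These genes were picked after their values were seen, and 12 of the 14 microRNA genes that were called or carry the Mir680 name had a mature sequence in the table, Mir30b not among them. Which form of each RNA the probe sets read was not tested. The mature sequences that set these loci apart from miR-680 are given with the seed in capitals.
mmu-miR-9-5p: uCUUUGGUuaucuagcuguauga
mmu-miR-484: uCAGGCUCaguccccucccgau
mmu-miR-181a-5p: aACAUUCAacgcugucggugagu
mmu-miR-346-5p: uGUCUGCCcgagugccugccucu

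In the cerebellum, 386 genes were called lower (1.94%) and 87 higher (0.436%), 2.37% in all. Prps2, a synthetase of the nucleotide precursor PRPP, was at 9.57, 9.60 and 9.70 in the +/+ mice, against 9.06 and 9.12 in df/+ and 9.16, 9.03 and 9.06 in dp/+ mice (difference -0.54 ± 0.08, adjusted p = 0.00112). Zfp830, a zinc finger gene, was at 7.53, 7.36 and 7.25, against 6.75 and 6.75 in df/+ and 6.70, 6.68 and 6.76 in dp/+ mice (difference -0.66 ± 0.10, adjusted p = 0.00139). Both genes kept their call with each mouse left out in turn and after renormalisation. Sde2 (-0.51), the potassium channel gene Kcna4 (-0.52) and Ncbp2 (-0.56), a subunit of the nuclear cap-binding complex, also fell.

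The cerebellar genes with the smallest p among those that rose were G430095P16Rik (0.62), Gm10644 (1.13), Tmem61 (0.53), Lrrc14b (0.41) and Klhl34 (0.88), most of them without a well-known role. Klhl34 was at 6.86, 6.50 and 7.27 in the +/+ mice, against 7.55 and 7.84 in df/+ and 7.77, 7.56 and 8.05 in dp/+ mice, with no overlap. Leaving out +/+ mouse 1, 2 or 3 gave 39, 2 or 147 cerebellar calls. Leaving out df/+ mouse 1 or 2 gave 1763 or 126, and dp/+ mouse 1, 2 or 3 gave 35, 228 or 13. It was 88, of them 61 lower and 27 higher, after quantile normalisation within regions, and 47 with the cerebellum fitted alone.

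Choroid plexus genes, from the tissue that makes cerebrospinal fluid, were low across the brain. All 10 markers had a difference below 0 (median -0.35), 8 were lower at an unadjusted p below 0.05 (8.68% of all genes were), 2 separated the groups downward (4.49% did) and none was called. The 8 became 3 without +/+ mouse 2, 4 without the cerebellum, 5 without the brain stem, 3 without the brain stems of +/+ mice 1 and 2, and 2 with all region samples entered and a random mouse effect. In the cerebellum 3 of the 10 were called lower, beside 1.94% of all genes there. They were Clic6 (-0.87), the bicarbonate transporter gene Slc4a5 (-0.98) and the transcription factor gene Otx2 (-0.57). Otx2 was at 9.68, 9.88 and 10.14 in the +/+ mice, against 9.20 and 9.30 in df/+ and 9.51, 9.53 and 9.14 in dp/+ mice. Ttr, the main secreted protein of this tissue, was at 13.37, 13.41 and 13.63 in the +/+ cerebella, against 11.17 and 13.62 in df/+ and 13.48, 12.68 and 13.57 in dp/+ mice, so its groups overlapped. The mean of the markers in the cortex was between 8.58 and 8.80 in rearranged and between 8.39 and 8.57 in +/+ mice, the other way round. Without the cerebellum the median over the brain was -0.17, and without the brain stems of +/+ mice 1 and 2 it was also -0.17.

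In the brain stem, 8 genes were called, all lower (0.0401%). Of the 8, 7 had their highest +/+ level in the cortex, beside 3587 of all 19938 genes. Mlip, which encodes a lamin-binding protein, was at 8.97, 9.41 and 8.22 in the +/+ mice, against 7.57 and 7.46 in df/+ and 8.01, 7.68 and 8.15 in dp/+ mice (difference -1.09 ± 0.17, adjusted p = 0.00490). Fezf2, a transcription factor gene of deep-layer cortical neurons, was at 8.0, 8.48 and 7.24, against 6.78 and 6.92 in df/+ and 7.21, 7.03 and 7.13 in dp/+ mice (difference -0.90 ± 0.16, adjusted p = 0.0160). In both genes +/+ mice 1 and 2 were far above the rest and +/+ mouse 3 lay just above the rearranged mice. The other calls were Fam131a (-0.70), Kcnv1 (-1.03), the transcription factor gene Mef2c (-0.89), Tbr1, another gene of deep-layer neurons (-1.79), Fam81a (-0.61) and Slc25a31 (-0.65).

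Tbr1 was at 8.49 and 9.08 in the brain stems of +/+ mice 1 and 2, and at 6.45 in +/+ mouse 3, which lay within the rearranged range of 5.79 to 7.13. The mean of 6 cortical neuron markers in the brain stem was 8.86, 9.19 and 8.46 in the +/+ mice, against 8.28 and 8.21 in df/+ and 8.65, 8.20 and 8.40 in dp/+ mice. The mean of 10 choroid plexus markers was 8.34, 8.82 and 7.62 in the +/+ mice and between 7.54 and 7.79 in the rearranged mice. Ttr was at 12.39 and 12.98 in +/+ mice 1 and 2, and at 8.95 in +/+ mouse 3. With these 2 brain stems left out, an alternative chosen after seeing the data, Mlip differed by -0.47. No gene was called, but this leaves 1 +/+ brain stem, which is assumed to vary like the other samples. Leaving out any of +/+ mouse 1, +/+ mouse 2, df/+ mouse 2 and dp/+ mouse 2 also gave 0 calls, while df/+ mouse 1 gave 4, dp/+ mouse 1 gave 21 and +/+ mouse 3 gave 77. In the cortex itself Tbr1 differed by -0.06 and Mlip by -0.03.

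**Figure D5:**
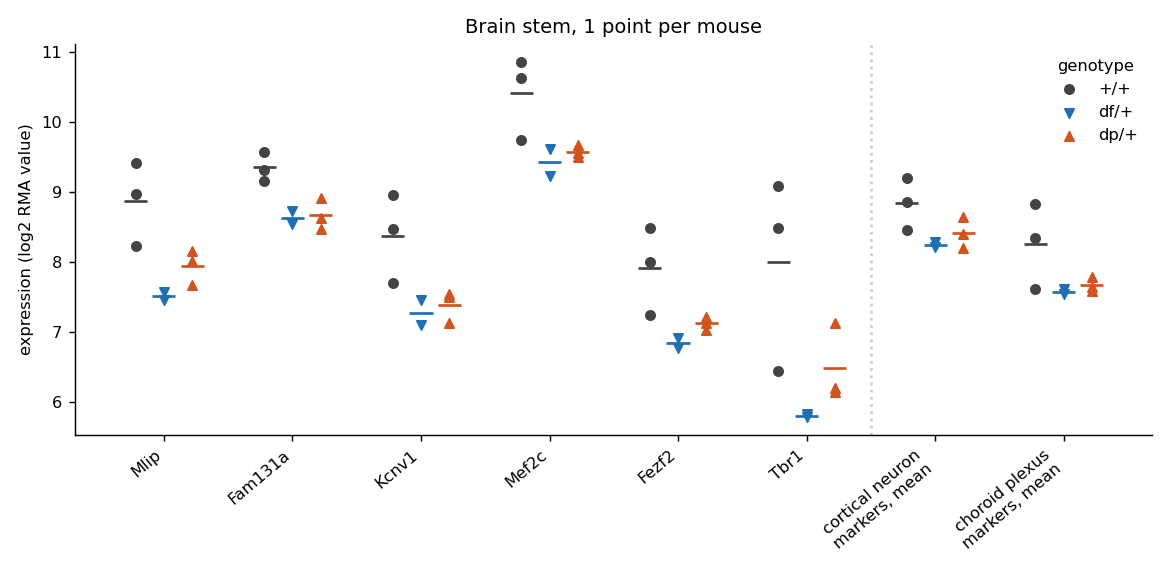
Expression in the brain stem (log2 RMA value), 1 point per mouse, with short bars at genotype means, for 6 called genes and for the means of 6 cortical neuron and 10 choroid plexus markers. In most columns the 2 high points are +/+ mice 1 and 2, and +/+ mouse 3 lies near the rearranged mice.

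Genes higher in rearranged brain stems did not pass. The nicotinic receptor gene Chrna6, which is found in midbrain dopamine neurons, differed by 0.63 (adjusted p = 0.0559) and En2, a transcription factor gene of midbrain and hindbrain, by 0.43 (adjusted p = 0.219). In the cortex, with 4 rearranged mice, no gene was called by limma, and 2229 (11.2%) had an unadjusted p below 0.05. The count stayed at 0 in every alternative except without +/+ mouse 1, where it was 2. The smallest p belonged to Fsd1l (-0.36) and the chemokine gene Ccl28 (-0.41) among lower values and to Inka1 (0.36) and the relaxin-family receptor gene Rxfp3 (0.39) among higher ones, each with an adjusted p of 0.178. Fsd1l was at 7.98, 8.04 and 7.91 in the +/+ cortices, against 7.72 and 7.57 in df/+ and 7.61 and 7.57 in dp/+ mice.

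The effect of rearrangement differed between regions in 304 genes (1.52%), by an F test that the 4 regional differences are equal. Kdm5a differed by 0.45 in the bulb, by -0.29 in the cortex, by -0.20 in the cerebellum and by -0.03 in the brain stem (adjusted p = 0.00182), and the regions cancelled across the brain. Gm10874 was at -1.18 in the bulb and at 1.24, 1.28 and 0.34 in the cortex, cerebellum and brain stem (adjusted p = 0.00182). Gm11149, Gm10644 and Klhl34 ran the same way, with -0.57, -0.58 and -0.46 in the bulb and 0.66, 1.13 and 0.88 in the cerebellum. Among genes named above, Gng13 (adjusted p = 0.0137), Mir680-1 (adjusted p = 0.0207) and Snord57 (adjusted p = 0.0282) differed between regions. For Snord35b, Scarna17 and Snora23 the F test did not pass (adjusted p = 0.519, 0.290 and 0.677). Leaving out +/+ mouse 1, 2 or 3 gave 0, 1 or 687 genes, df/+ mouse 1 or 2 gave 144 or 57, and dp/+ mouse 1 or 2 gave 129 or 82.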

How the data were processed

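The authors deposited log2 values per probe set (35556 on each of 37 arrays). They were made with RMA in Affymetrix Expression Console, per the submitters' processing notes. Base 2 was read from the values, and no genome build or batch is given in the sources used here. By the labels' mouse IDs each replicate is a separate mouse. Second arrays of 6 samples were averaged. The probe set with 1 symbol and the highest mean stood for each gene (19938 genes).

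limma 3.58.1 in R 4.3.3 compared 5 with 3 mice, 1 value per mouse, and also the 3 genotypes. Within regions it fitted region by status means to 31 samples, the samples of 1 mouse being treated as correlated (duplicateCorrelation, 0.18). P values were adjusted over all genes by Benjamini-Hochberg, threshold 0.05. Replicate numbers were not used as pairs in the main fits. Correlations of deviations ran from -0.38 to 0.17 for mice of the same number and from -0.39 to 0.39 for different numbers. The values of the 2 df/+ mice mirror each other by construction, so these correlations cannot settle whether the numbers pair mice. The procedure was tested on simulated data.

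The comparison, its members and all gene lists were chosen with earlier results of these data known. Genes were named by smallest p: the called genes and up to 6 per direction across the brain, up to 5 per direction and region (2 where none passed), 5 for the F test, and up to 4 per list. Snord35b, Scarna17, Mphosph6, Vaultrc5, Snora31, Gng13, Stoml3, Cnga2 and Omp were fixed, and others named were picked after their values were seen. Names and sequences come from RefSeq tables (GRCm38.p6). No snoRNA sequence is printed. Of the reference identifiers 21698 were found and 91 were not. Probe sets with several symbols (1621) or none listed (12146) were not named.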

Additional observations from a re-analysis of the deposited data

Results flagged for a closer look

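The effect of both rearrangements against +/+ differed between regions in 304 genes by the F test, with Kdm5a and Gm10874 at adjusted p = 0.00182 and Gm10644, Klhl34 and Gm11149 at adjusted p = 0.00356. Gdpd3 and Slx1b, which lie in the rearranged segment, differed between the rearrangements, with dp/+ above df/+ by 3.47 and 1.10 on the log2 scale. Lce1b had 1 rearranged mouse apart from the other 4: df/+ mouse 1 was at 0.14 above the +/+ mean, against 0.25 to 0.28. That was 1 of 49 genes and places examined, and chance flags about 1 in 20.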

How the results depend on the processing

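Each choice was changed alone. Of the called genes (3 across the brain, 338 for the bulb, 473 for the cerebellum and 8 for the brain stem), none changed sign in any alternative run for them. Since they were called on these same values, a kept sign says little about how firm the calls are. Without +/+ mouse 1, 0 of the 338 bulb calls remained, and without +/+ mouse 2, 2 of the 473 cerebellar calls. Across the brain 3 genes were called in the main analysis, 5 with the first array of each sample, 6 with array weights, 6 with equal weight for the 3 genotypes, 14 when all region samples entered with a random mouse effect (of the 3, only Snora23 among them), and 22 without the cortex. The count was 0 after quantile normalisation within regions (2337 genes at an unadjusted p below 0.05), after cyclic loess (2437), without the cerebellum (1237) and without the brain stem (3944), and 1 without the bulb or without the brain stems of +/+ mice 1 and 2. The range with a mouse left out was 0 to 11. With the replicate block, which pairs mice by a number only, it was 5; the same block gave 262 genes in the bulb, 0 in the cortex, 154 in the cerebellum, 10 in the brain stem and 110 for the F test.

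The non-overlap counts ranged from 1001 to 2608 (lower) and from 699 to 2287 (higher) with a mouse left out. Without the cerebellum they were 393 and 409, and among brighter genes 70 lay higher. Small nucleolar and Cajal body RNAs that separated the groups numbered 6 without the bulb, and 16 to 24 with a mouse left out. In the bulb the count was 595 after cyclic loess, 610 with centred arrays, 766 after quantile normalisation within regions (added after seeing the data) and 9 fitted alone, with a range of 0 to 802. In the cerebellum it was 161 with first arrays, 142 after cyclic loess, 88 after quantile normalisation within regions and 47 alone, with a range of 2 to 1763. In the brain stem it was 0 alone and without +/+ brain stems 1 and 2 (1 +/+ sample left), with a range of 0 to 77. In the cortex it ranged from 0 to 2. The F test gave 30 genes with no block for the mouse, and 0 to 687 with a mouse left out. The causes were not tested. With 8 mice and no date or batch given, the precision rests on few animals. The labels' mouse IDs of +/+ mice 1 and 2 are lower than those of all other mice. The ID of the remaining +/+ mouse lies among those of the rearranged mice. Whether anything linked to ID order plays a part in the differences from +/+ was not tested.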

Other observations

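Of 13767 probe sets with no symbol or several, 0 were called across the brain by limma, and 2323 had an unadjusted p below 0.05. Genes called in the bulb differed in the length of their span in the reference table. Of the 234 called lower, 12 span more than 50000 bases, while of the 104 called higher 50 do. Of all 19856 genes with a listed span, 4665 are that long. These lengths were examined after the calls were seen. The median log2 difference in the bulb was 0.04 for the 4665 genes that span more than 50000 bases and -0.02 for the other genes with a listed span. Of 31 histone genes, 6 were called lower in the bulb, beside 1.17% of all genes, H2bc3 by -0.78. In the cortex the same genes had a median of 0.19, with 9 higher and 1 lower at an unadjusted p below 0.05. Of all genes there, 5.93% were higher and 5.25% lower at that level.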
